A study of Brassica rapa with 6 samples.

Results

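The genes that dismantle chlorophyll, together with the stay-green genes that belong to the same route, were compared between petiole and leaf of Chinese cabbage (Brassica rapa). Members were the annotated genes whose deposited description names pheophytinase, STAY-GREEN, chlorophyll(ide) b reductase, pheophorbide a oxygenase, red chlorophyll catabolite reductase or chlorophyllase. This rule found 14 of 45517 genes: 3 chlorophyll b reductases, 4 stay-green genes, 4 pheophytinases, 1 pheophorbide a oxygenase and 2 chlorophyllases. The data are 3 petiole libraries and 3 leaf libraries of wild type plants grown in a greenhouse, made from total RNA after removal of ribosomal RNA. The labels name no cultivar, age or agent. Nothing in them ties a library to a plant of its own, so the spread behind each p-value is that of these samples and could be technical.

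Green plants break chlorophyll down in a fixed order when leaves age or when the pigment turns over. Chlorophyll b is first turned back toward chlorophyll a by the reductases NYC1 and NOL, the STAY-GREEN protein takes magnesium out of chlorophyll a, pheophytinase cuts off the phytol tail, and pheophorbide a oxygenase opens the ring, after which colourless catabolites are made and exported to the vacuole. In Arabidopsis, plants that lack NYC1, STAY-GREEN or pheophytinase keep their green colour, and chlorophyllase, which also removes phytol, is not needed for the loss of green in ageing leaves. The blade is the main photosynthetic part of a cabbage leaf, and the petiole carries its veins.

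Levels are CPM, a gene's share of the library's counts in gene values scaled to a common total after TMM normalization, which assumes that the bulk of the genes does not differ, and all directions are relative to that bulk. Of the 14 members 13 had enough counts to be tested, and each of these 13 averaged at least 10 counts in either tissue. By edgeR's quasi-likelihood test with Benjamini-Hochberg adjustment over all genes, 10 of the 13 were lower in petiole, 1 was higher and 2 were not called. Across all 27984 genes tested, 31% were called lower, 31.4% higher and 62.4% either way. The median log2 fold change of the tested members was -1.07, against 0.01 over all genes. Groups did not overlap for 11 of the 13 members, which was so for 71.2% of all genes tested. On the log2(FPKM + 1) scale, where the median gene stood 0.48 higher in petiole, limma called 7 members lower and 4 higher.

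**Figure D1:**
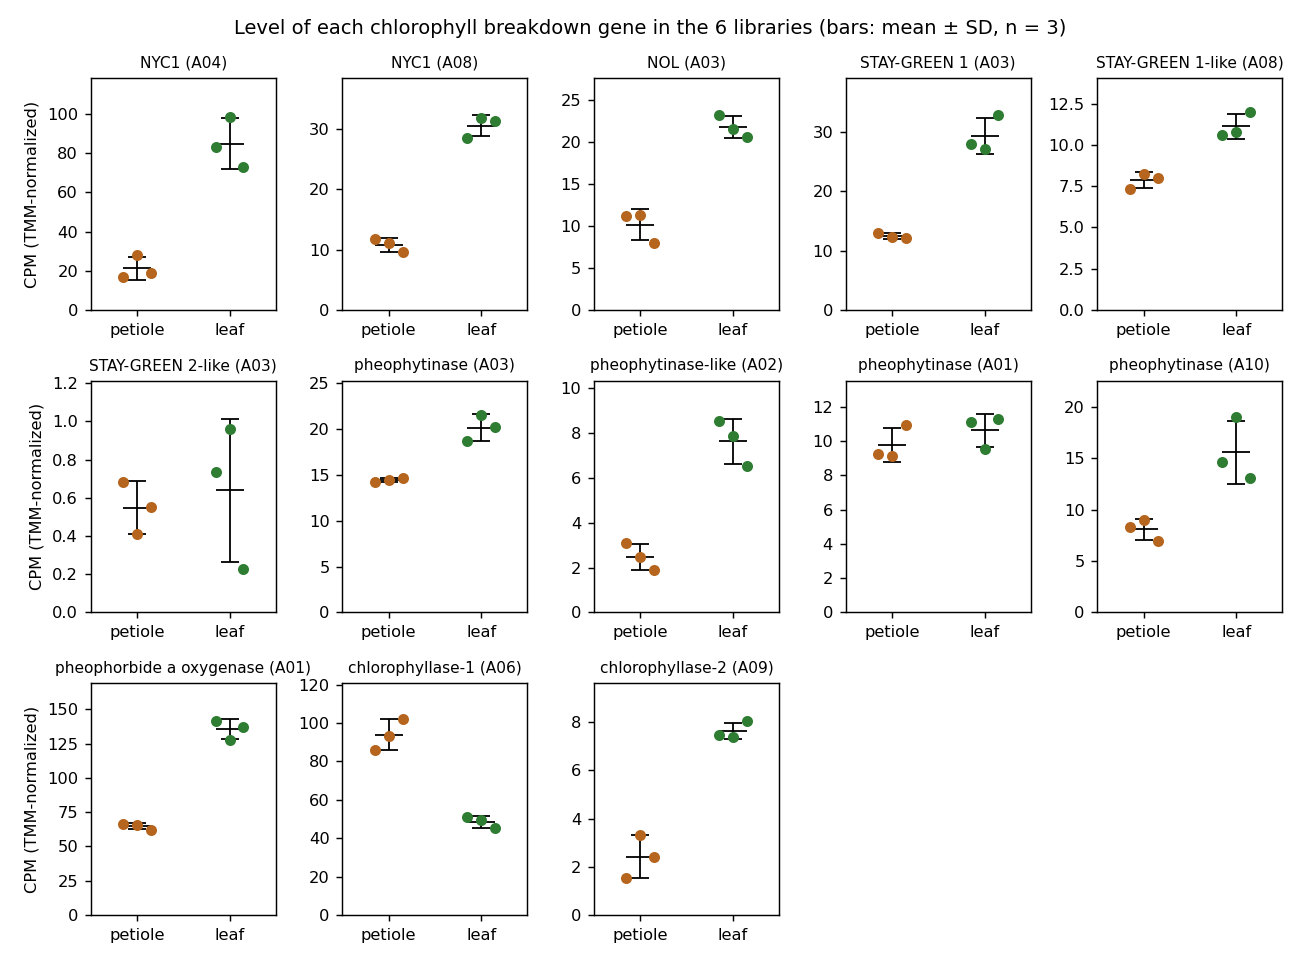
Each panel is a member, with petiole libraries on the left and leaf libraries on the right; points are libraries, bars the mean ± SD (n = 3), and the vertical axis is TMM-normalized CPM from 0. All 3 petiole points lie below all 3 leaf points in 10 panels (on the FPKM scale the pheophytinase on A03 and the STAY-GREEN 1-like gene turn the other way) and above them in the chlorophyllase-1 panel.

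Mesophyll markers and xylem markers followed the labels. Of 28 tested Rubisco small chain and chlorophyll a-b binding protein genes 27 were lower in petiole and 0 higher, and their summed level was 548 to 598 CPM in petiole, against 8661 to 9024 CPM in leaf. Of 31 such genes 3 were at 0 in petiole and 1 was at 0 in leaf. All 6 tested xylem markers were higher in petiole, with sums of 94.0 to 123 CPM in petiole and 36.0 to 47.7 CPM in leaf, and 2 of the 9 xylem markers were at 0 in petiole and 3 in leaf. Of phloem, guard cell and epidermis markers, 5 of 20, 4 of 13 and 12 of 38 tested were higher in petiole, and 10, 5 and 20 were lower. Over all genes tested, 31.4% were higher and 31% lower. The summed phloem level was 364 to 381 CPM in petiole and 804 to 813 CPM in leaf, that of the guard cell list 12.5 to 16.9 CPM in petiole and 29.0 to 33.1 CPM in leaf, and that of epidermis 869 to 925 CPM in petiole and 1146 to 1174 CPM in leaf. The phloem list was searched by the names SUC2, PHLOEM PROTEIN 2, SIEVE ELEMENT OCCLUSION and plasma membrane ATPase 3. The epidermis list was searched by ECERIFERUM, 3-ketoacyl-CoA synthase, MERISTEM L1 and PROTODERMAL FACTOR. Both held genes that moved either way, with log2 fold changes from -2.74 to 3.62 for phloem and from -12.3 to 4.88 for epidermis. The guard cell list was searched by the names SLAC1, KAT1, KAT2, FAMA and EPIDERMAL PATTERNING FACTOR. Its largest rises were genes described as EPIDERMAL PATTERNING FACTOR-like. Its largest fall was that of a SLAC1 gene (BraA06g009180.3C), at 0 in petiole and 6.40 CPM in leaf. The next was EPIDERMAL PATTERNING FACTOR 1 (BraA09g055980.3C), at 0 in petiole and 0.422 CPM in leaf. The counts and sums of phloem, guard cell and epidermis are those of these mixed lists. The part of these marker differences in the results was not tested, and in bulk tissue fewer cells of a type and less RNA per cell cannot be told apart. Gene values took in 92622142 to 104023132 counts per petiole library and 68073160 to 72716761 per leaf library.

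All 3 chlorophyll b reductases fell in petiole. These enzymes start the route by acting on chlorophyll b, most of which sits in the light-harvesting antenna. The largest of the 3 changes was that of the NYC1 gene BraA04g008820.3C (A04, 6223252 to 6225612, plus strand, 10 exons). It stood at 17.0, 28.1 and 18.7 CPM in the petiole libraries, against 83.2, 98.5 and 72.8 CPM in the leaf libraries. The lowest leaf library was well above the highest petiole library, and the gene was 3.99-fold lower in petiole (log2 fold change -2.00, SE 0.199; edgeR adjusted p = 5.46e-05). The other NYC1 copy, BraA08g006610.3C (A08, 5499702 to 5502196, plus strand, 10 exons), had 11.8, 11.0 and 9.54 CPM in petiole and 28.6, 31.8 and 31.3 CPM in leaf. Its groups lay far apart, and it was 2.82-fold lower in petiole (log2 -1.50, SE 0.106; edgeR adjusted p = 7.35e-06). NOL, the partner that forms a complex with NYC1 in rice, is here the gene BraA03g001800.3C (A03, 821357 to 823308, plus strand, 12 exons). NOL had 11.2, 11.3 and 8.01 CPM in petiole and 23.2, 21.6 and 20.6 CPM in leaf, and fell by 1.10 on the log2 scale (SE 0.147; edgeR adjusted p = 0.000299). Summed over the 3 genes, the reductase step stood at 42.2 ± 7.31 CPM in petiole and 137 ± 13.7 CPM in leaf (SD, n = 3).

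The end of the NYC1 gene on A04 meets a gene on the other strand, BraA04g008830.3C, whose description names no protein. Assembled transcripts of this neighbour, on the minus strand, end at 6225612, their lowest coordinate, and lie beneath 2 NYC1 transcripts over 534 and 149 bases. The neighbour had 2996, 3258 and 3889 counts in petiole and 74, 93 and 64 counts in leaf. The libraries are strand-specific, but whether counting used the strand is not given in the sources used here, so reads in the shared stretch cannot be assigned with certainty. Without those 2 transcripts NYC1 on A04 stood at 1.45, 20.6 and 0.869 CPM in petiole and 75.4, 81.7 and 51.4 CPM in leaf. The groups still did not overlap, and the ratio of the leaf mean to the petiole mean was then 9.10. However, the split of counts among NYC1 transcripts was unsteady. A kept transcript held 3.61%, 68.5% and 0% of the gene's counts in the petiole libraries. The ratio of 9.10 therefore cannot show how far the overlap bears on the fall of the gene sum.

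The stay-green genes were split between falls, no call and no counts. STAY-GREEN 1 of Arabidopsis is the magnesium-removing enzyme whose loss leaves ageing leaves green. The gene described as STAY-GREEN 1, BraA03g050600.3C (A03, 25985593 to 25986717, minus strand, 4 exons), had 13.0, 12.4 and 12.1 CPM in petiole, against 27.9, 27.1 and 32.9 CPM in leaf. Petiole libraries were close to each other and all below the leaf libraries (log2 fold change -1.23, SE 0.101; edgeR adjusted p = 1.70e-05). A STAY-GREEN 1-like gene, BraA08g015150.3C (A08, 12501546 to 12502527, minus strand, 4 exons), had 7.31, 8.26 and 8.01 CPM in petiole and 10.6, 10.8 and 12.0 CPM in leaf. It fell by 0.50 on the log2 scale (SE 0.118; edgeR adjusted p = 0.00657), but on the log2(FPKM + 1) scale it was 0.21 higher in petiole, and -0.27 relative to the median gene of that scale. The STAY-GREEN 2-like gene BraA03g027730.3C (A03, 13815277 to 13816611) is annotated in the deposited table to negative regulation of chlorophyll breakdown. It was near the limit of these libraries, with 0.683, 0.408 and 0.554 CPM in petiole and 0.735, 0.958 and 0.228 CPM in leaf. Its groups overlapped and it was not called (log2 fold change -0.22, SE 0.693; edgeR adjusted p = 0.798). STAY-GREEN LIKE, BraA10g007860.3C (A10, 5291814 to 5292879), whose relative in Arabidopsis acts on chlorophyll outside ageing, was listed at 0 in every library, which allows up to 0.0326 CPM in a petiole library and up to 0.0432 CPM in a leaf library, taking 3 counts as the floor and counting error only. Summed over the 4 genes, the step stood at 20.9 ± 0.227 CPM in petiole and 41.0 ± 3.47 CPM in leaf (SD, n = 3).

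Pheophytinase, the enzyme that removes phytol once magnesium is gone, is described for 4 genes, which did not move alike. The copy with the highest CPM, BraA03g005900.3C (A03, 2594260 to 2596230, minus strand, 5 exons), had 14.3, 14.5 and 14.7 CPM in petiole and 18.7, 21.5 and 20.2 CPM in leaf. The difference was small but larger than the spread, a fall by 0.48 on the log2 scale (SE 0.0901; edgeR adjusted p = 0.00210), and on the log2(FPKM + 1) scale it turned to 0.23, or -0.25 relative to the median gene. The copy described as pheophytinase-like, BraA02g005150.3C (A02, 2470339 to 2472419, minus strand, 5 exons), was the lowest of the 4 and had 3.08, 2.45 and 1.89 CPM in petiole and 8.51, 7.84 and 6.54 CPM in leaf. It fell by 1.63 on the log2 scale (SE 0.228; edgeR adjusted p = 0.000404). An assembled transcript of another gene, BraA02g005420.3C, spans this copy on the same strand, so that reads could be shared between them, and that gene had 6.17, 6.43 and 6.04 CPM in petiole and 10.3, 11.4 and 14.3 CPM in leaf. BraA10g020590.3C (A10, 14880591 to 14882296, plus strand, 8 exons) had 8.27, 8.99 and 6.97 CPM in petiole and 14.6, 19.0 and 13.1 CPM in leaf, a fall by 0.95 (SE 0.168; edgeR adjusted p = 0.00153). BraA01g002240.3C (A01, 1103618 to 1105091, plus strand, 5 exons) was not called, with 9.24, 9.14 and 11.0 CPM in petiole and 11.1, 9.53 and 11.3 CPM in leaf (log2 fold change -0.12, SE 0.130; edgeR adjusted p = 0.439). On the log2(FPKM + 1) scale limma called this copy higher, at 0.54, or 0.05 relative to the median gene. The annotation separates the copies as well: those on A02 and A03 carry the term pheophytinase activity, while those on A01 and A10 carry hydrolase activity and are pheophytinases by their description only. The 4 genes together stood at 34.8 ± 0.278 CPM in petiole and 54.0 ± 3.50 CPM in leaf (SD, n = 3).

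Pheophorbide a oxygenase is the ring-opening enzyme after which the pigment is no longer green, and a single gene describes it, BraA01g025910.3C (A01, 15709130 to 15711414, minus strand, 7 exons). It had 66.2, 65.6 and 62.2 CPM in petiole and 142, 128 and 137 CPM in leaf. The libraries of each tissue were close together and the tissues were far apart, and the gene was 2.10-fold lower in petiole (log2 -1.07, SE 0.0548; edgeR adjusted p = 1.15e-06). No description names red chlorophyll catabolite reductase, the next enzyme. However, BraA01g001750.3C, described only by a Brassica napus identifier, carries the enzyme number and the activity term of that reductase in the deposited annotation. It had 10.3, 11.2 and 11.5 CPM in petiole and 50.6, 51.7 and 41.6 CPM in leaf, and fell by 2.12 on the log2 scale (SE 0.106; edgeR adjusted p = 9.85e-07).

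The chlorophyllases went in opposite directions. Chlorophyllase-1 was first met in Arabidopsis as a gene induced by coronatine, a bacterial mimic of jasmonate, and its deposited annotation includes defence against bacteria and fungi. This gene, BraA06g015220.3C (A06, 8144289 to 8145619, minus strand, 2 exons), had 86.1, 93.5 and 102 CPM in petiole, against 51.0, 49.7 and 45.1 CPM in leaf. It was the member called higher, 1.93-fold (log2 fold change 0.95, SE 0.0780; edgeR adjusted p = 1.73e-05), with every petiole library above every leaf library. Chlorophyllase-2, BraA09g019990.3C (A09, 12944189 to 12945785, plus strand, 2 exons), had 1.52, 3.32 and 2.40 CPM in petiole and 7.48, 7.39 and 8.03 CPM in leaf. It was 3.16-fold lower in petiole (log2 fold change -1.66, SE 0.283; edgeR adjusted p = 0.00120). Chlorophyllase-1 is the abundant copy, and the sum of both was 96.3 ± 8.42 CPM in petiole and 56.2 ± 2.74 CPM in leaf (SD, n = 3).

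**Figure D2:**
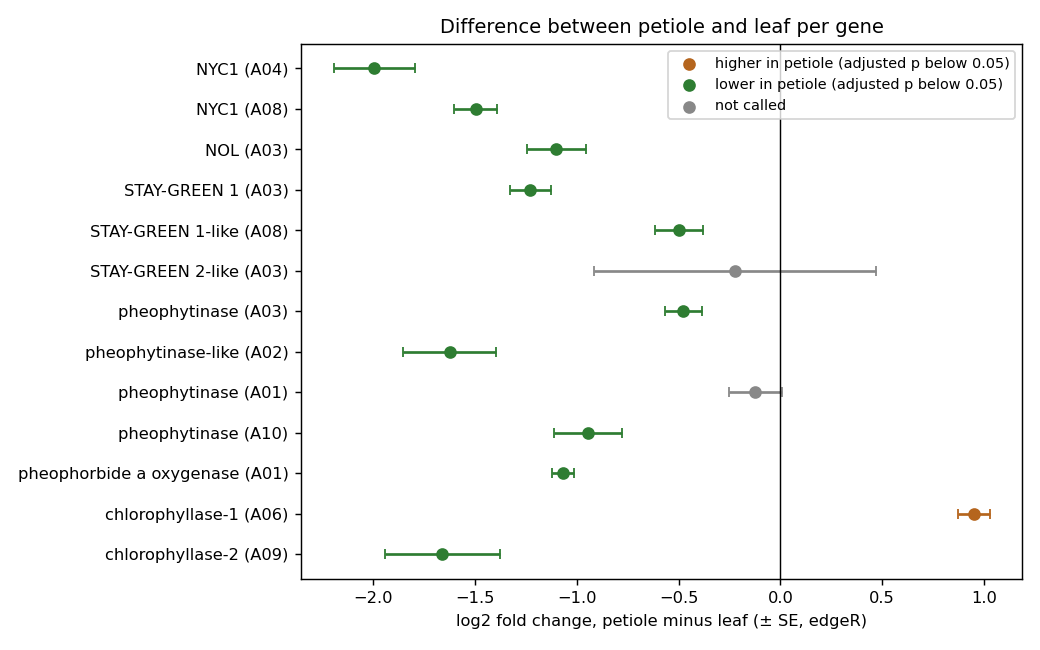
The horizontal axis is the log2 fold change of petiole minus leaf by edgeR, with its SE, for the 13 tested members, grouped by step with the chlorophyllases last. Chlorophyllase-1 stands right of 0 at 0.95 and the other called members left of it, between -2.00 and -0.48; on the log2(FPKM + 1) scale the pheophytinase on A03 and the STAY-GREEN 1-like gene turn to 0.23 and 0.21.

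Levels of different genes were set side by side on a scale of CPM per kilobase of transcript. In petiole, chlorophyllase-1 led with 96.3 ± 8.18 CPM per kilobase, followed by pheophorbide a oxygenase with 31.4 ± 1.05 and STAY-GREEN 1 with 12.5 ± 0.192 (SD, n = 3). The libraries of these genes and their lower neighbour did not overlap, except for STAY-GREEN 1 and NYC1 on A04 (10.6 ± 3.85). From STAY-GREEN 1 down to NOL (9.06 ± 0.999) each of the 6 genes overlapped with the next. In leaf, pheophorbide a oxygenase led with 65.7 ± 3.54 CPM per kilobase, ahead of NYC1 on A04 with 50.3 ± 10.5 and chlorophyllase-1 with 49.8 ± 3.14, and the last 2 of these overlapped. STAY-GREEN 1 (31.4 ± 3.16) and NOL (19.5 ± 1.89) came next, and NOL overlapped with NYC1 on A08 (18.7 ± 1.32). The pheophytinases on A03, A10 and A01 stood at 13.6 ± 0.980, 11.7 ± 2.28 and 10.5 ± 0.871 in leaf and overlapped in that order. STAY-GREEN 2-like was the lowest detected member in either tissue, at 0.665 ± 0.166 in petiole and 0.776 ± 0.454 in leaf.

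**Figure D3:**
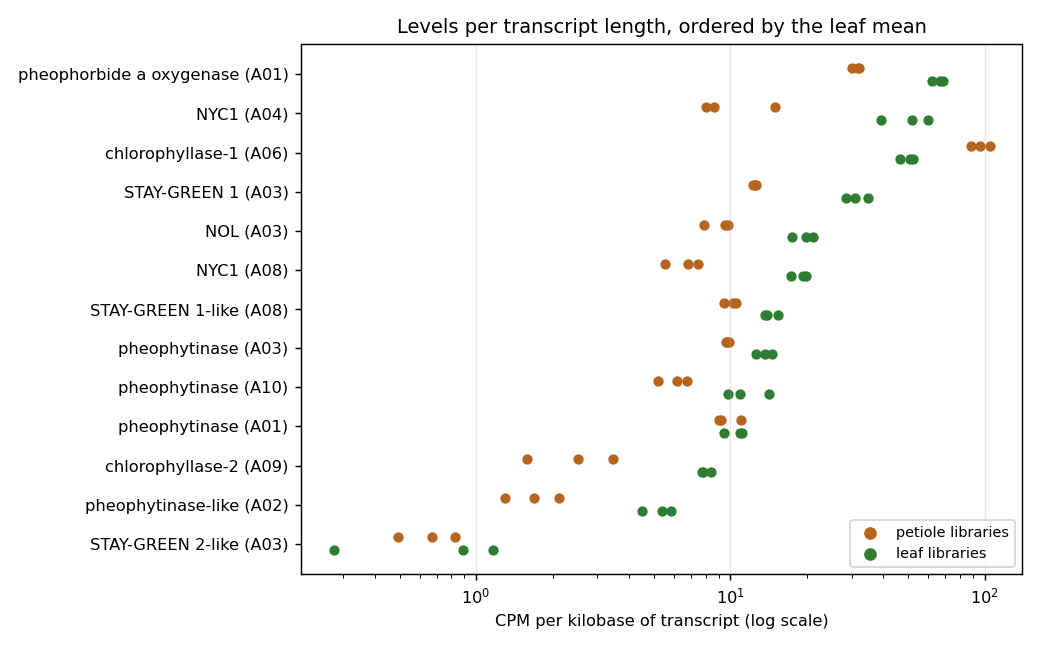
Each point is a library, placed on a log axis of CPM per kilobase of transcript, with petiole in brown above leaf in green and members ordered by their leaf mean. Chlorophyllase-1 is the top gene of petiole at a mean of 96.3, and pheophorbide a oxygenase that of leaf at 65.7; STAY-GREEN LIKE, at 0 in all libraries, is not drawn.

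The make-up of each step by gene copy is given as a share of the summed CPM per kilobase of that step. Chlorophyllase-1 made up 97.5% ± 0.877 of the chlorophyllase level in petiole and 86.2% ± 1.31 in leaf (SD, n = 3). Of the reductase level, NYC1 on A04 made up 39.6% ± 8.02 in petiole and 56.4% ± 4.24 in leaf, and NOL 34.9% ± 4.20 in petiole and 22.1% ± 1.03 in leaf. The shares of both genes did not overlap between tissues, while those of NYC1 on A08 did (25.4% ± 3.90 and 21.4% ± 3.40). STAY-GREEN 1 made up 53.7% ± 1.36 of the stay-green level in petiole and 67.4% ± 1.79 in leaf. Among pheophytinases, the copy on A01 made up 35.8% ± 3.80 in petiole and 25.7% ± 3.51 in leaf, and the copy on A02 6.26% ± 1.54 in petiole and 12.8% ± 1.54 in leaf. Over all members, chlorophyllase-1 held 44.8%, 45.0% and 49.8% of the summed level in the petiole libraries and 17.2%, 16.5% and 16.1% in the leaf libraries. These shares follow from the gene levels above and were not tested separately.

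The members have 29 transcripts in the table, and 5 members have a single one. Of 28 transcripts tested by edgeR over all isoforms, 8 were lower in petiole, 1 was higher and 19 were not called, with 14.1% of all tested isoforms lower and 15.4% higher. The lower count varied from 3 to 6 when a library was left out: 4 without leaf replicate 1, 3 without leaf replicate 2, 5 without leaf replicate 3, 4 without petiole replicate 1, 5 without petiole replicate 2 and 6 without petiole replicate 3. Transcript estimates were far less steady than gene sums. Among the 9 members with at least 2 tested transcripts, the median coefficient of variation within a tissue was 35.5% for transcripts and 8.12% for gene sums. In NOL the annotated transcript held 23.9%, 5.97% and 99.2% of the counts in petiole and 13.0%, 95.8% and 9.19% in leaf. In NYC1 on A08 the annotated transcript held 39.5%, 36.2% and 0% in petiole and 33.6%, 39.6% and 31.1% in leaf, and in NYC1 on A04 4.91%, 4.87% and 4.64% in petiole and 68.8%, 56.9% and 1.99% in leaf. Within a tissue the share of a transcript thus jumped from library to library more than the gene sum did, and the statements on the reductases rest on the sums.

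Outside the reductases, 3 members have a single assembled form that has 1 exon fewer than the annotated transcript and is longer. In STAY-GREEN 1 this form, 310 bases longer, held 81.0%, 74.9% and 64.0% of the counts in petiole and 42.8%, 57.7% and 55.9% in leaf. In the pheophytinase on A03 it is 84 bases longer and held 28.4%, 31.3% and 24.6% in petiole and 19.1%, 15.6% and 16.9% in leaf. The shares did not overlap between tissues in either gene, which was so for 20.3% of all tested isoforms of genes with at least 2. In the STAY-GREEN 1-like gene it is 70 bases longer, and its shares overlapped, with 15.3%, 27.1% and 23.5% in petiole and 13.0%, 12.3% and 17.2% in leaf. The annotated 4-exon transcript of STAY-GREEN 1 fell by 2.02 on the log2 scale (SE 0.279; edgeR adjusted p = 0.00446), while the longer form was not called (log2 fold change -0.68, SE 0.221; edgeR adjusted p = 0.0754). A test of the share itself over all isoforms (diffSpliceDGE in edgeR, chosen after the values were seen) called 0 of the 24 transcripts of these members, and 1 had an unadjusted p below 0.05. Of all 29447 isoforms it called 0.608%, so these share differences were not shown to be larger than the spread it estimates. None of the 886 circular RNAs in the deposited table has a member as host gene.

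**Figure D4:**
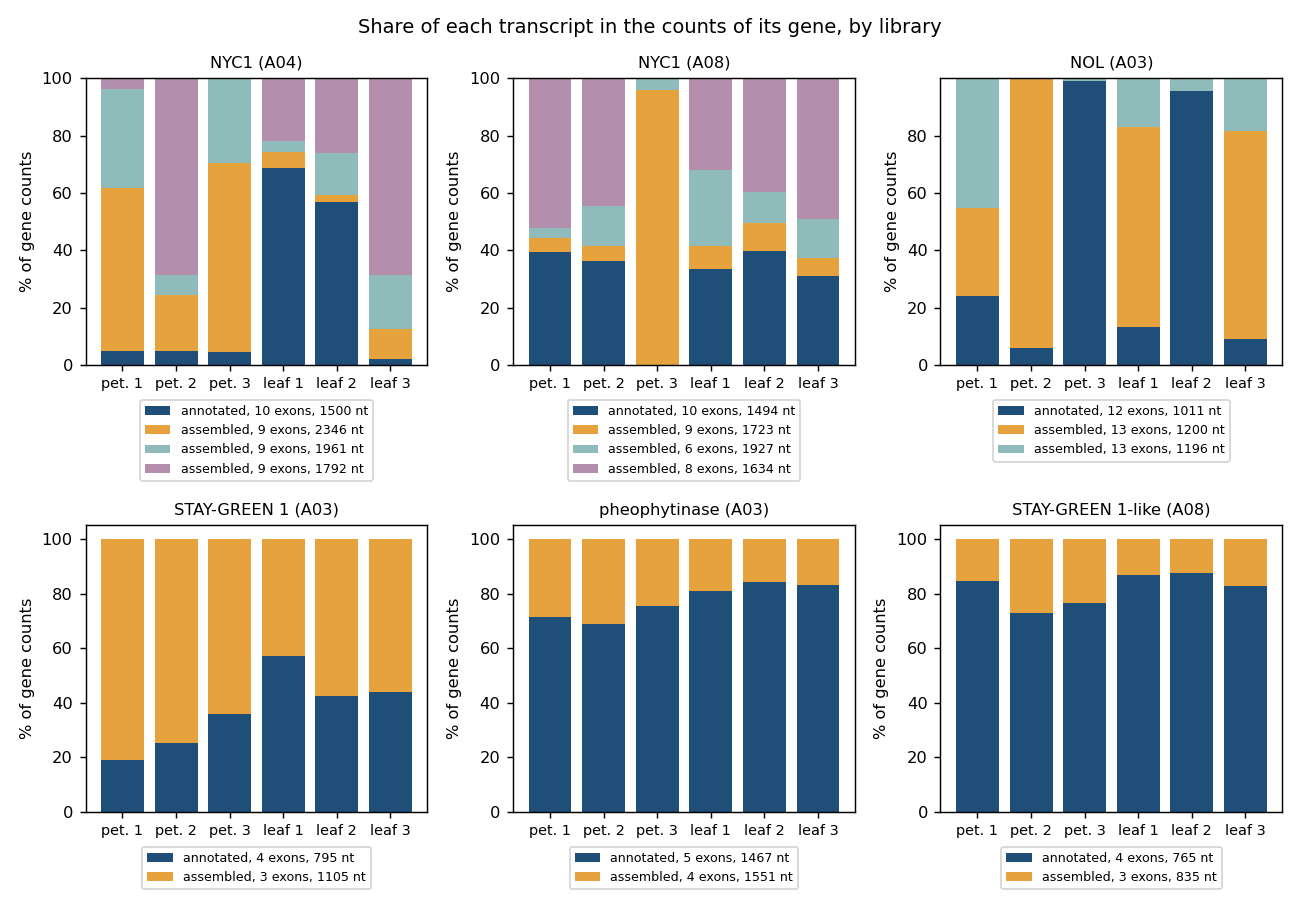
Bars are the 3 petiole and 3 leaf libraries, and colours the share of each transcript in the counts of its gene in percent, for 6 members. The shares of the chlorophyll b reductases change between libraries of the same tissue, while in STAY-GREEN 1 the longer 3-exon form takes 64.0% to 81.0% in petiole and 42.8% to 57.7% in leaf.

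The other genes of chlorophyll turnover moved as follows. Of 8 tested genes of the chlorophyll cycle and phytol recycling, 7 were lower in petiole, 0 were higher and 1 was not called (median log2 fold change -1.08). Among all genes tested 31% were lower and 31.4% higher. 7-hydroxymethyl chlorophyll a reductase, which completes the return of chlorophyll b to chlorophyll a (BraA10g003160.3C), had 30.7, 25.9 and 27.9 CPM in petiole and 95.7, 93.1 and 87.3 CPM in leaf and fell by 1.71 (SE 0.0763; edgeR adjusted p = 5.26e-07). Chlorophyllide a oxygenase, which makes chlorophyll b (BraA10g007770.3C), fell by 2.03 (SE 0.0604; edgeR adjusted p = 6.09e-08), and a phytol kinase 1-like gene (BraA03g001610.3C), of the enzyme that recycles freed phytol, fell by 6.19 to 0.0915 ± 0.0806 CPM in petiole, against 6.67 ± 0.941 CPM in leaf (SD, n = 3). The more abundant gene described as phytol kinase 1 (BraA10g031820.3C) fell by 1.20, with 21.4 ± 2.22 CPM in petiole and 49.0 ± 3.19 CPM in leaf. The gene not called was chlorophyll synthase BraA01g022230.3C, which attaches phytol, at 77.9 ± 6.59 CPM in petiole and 73.9 ± 4.85 CPM in leaf (SD, n = 3). Other chlorophyll synthase copies were lower in petiole. BraA09g043060.3C stood at 92.1 ± 12.9 CPM in petiole and 158 ± 4.04 CPM in leaf (log2 fold change -0.78), and BraA02g029910.3C fell by 0.95.

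Of 8 genes of later catabolite steps and export, 5 were lower and 3 higher (median -1.52), beside 31% and 31.4% of all genes tested. TIC 55, which hydroxylates a colourless catabolite in Arabidopsis (BraA03g025490.3C), had 27.4, 24.2 and 21.6 CPM in petiole and 111, 106 and 114 CPM in leaf. Cytochrome P450 89A9, which in Arabidopsis removes the formyl group of such catabolites (BraA03g031300.3C), was higher, with 32.7, 34.6 and 34.5 CPM in petiole and 22.3, 21.8 and 23.7 CPM in leaf (log2 fold change 0.59, SE 0.0726; edgeR adjusted p = 0.000190). The largest rise of this list was that of a cytochrome P450 89A2-like gene (BraA01g030660.3C) by 1.98, and ABC transporter C family member 2 (BraA05g010420.3C), a vacuolar transporter, rose by 1.06. Another 89A2-like gene (BraA02g026330.3C) fell by 1.99. The 89A2-like genes entered the list by their description, and a role of theirs in these steps was not shown. The largest falls by the naming rule were ABC transporter C family member 3 (BraA01g038370.3C), a vacuolar transporter, at -2.58 and TIC 55 at -2.18. This transporter gene was low, at 0.170 CPM in petiole and 1.03 CPM in leaf. More abundant member 3-like genes fell less. BraA03g035740.3C fell by 1.67 (14.4 CPM in petiole, 45.8 CPM in leaf) and BraA03g035760.3C by 1.37 (30.1 CPM in petiole, 77.8 CPM in leaf). No description names a water-soluble chlorophyll protein.

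Of 31 tested chlorophyll synthesis genes 29 were lower and 1 higher (median -1.84), beside 31% lower and 31.4% higher over all genes tested. The largest falls were protochlorophyllide reductase C (BraA08g035300.3C) at -3.84 and a magnesium-chelatase subunit ChlI-1 gene (BraA03g048280.3C) at -3.13, and the rise was glutamyl-tRNA reductase 2 (BraA09g062130.3C), an enzyme of the first steps of the pathway, at 0.87. Among the 5 genes that the deposited annotation places in chlorophyll breakdown and the rule does not, 2 were lower, 1 was higher and 2 were not called. The same shares over all genes apply to these 5. Besides the reductase of red chlorophyll catabolite, the fall was that of an aarF domain kinase gene (BraA01g006470.3C, -2.85), and the rise that of BraA01g013510.3C (0.87), which carries the enzyme number of chitinase. No difference between these lists and the members was tested.

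Regulators of senescence, the programme in which chlorophyll breakdown is best known, were more often lower than higher in petiole, and senescence-associated genes were mixed. Of 66 tested regulators of the NAC, WRKY, EIN3, PIF, ABI5 and other families, 12 were higher and 35 lower, 19 were not called and the median was -0.40. WRKY transcription factor 53, a promoter of senescence in Arabidopsis (BraA03g051480.3C), had 24.0, 32.2 and 29.3 CPM in petiole and 3.57, 3.33 and 3.19 CPM in leaf and rose by 3.08 (SE 0.137; edgeR adjusted p = 5.18e-07). A NAC domain-containing protein 19 gene (BraA07g027950.3C) had 0.529, 0.704 and 0.424 CPM in petiole and no count in leaf. Taking 3 counts over the 3 leaf libraries as the floor, it was at least 39.2-fold higher in petiole. A NAC domain-containing protein 55-like gene (BraA03g036950.3C) and a WRKY transcription factor 54 gene (BraA05g001850.3C) were at 0 in petiole, at least 77.0-fold and 49.9-fold lower by the same floor in petiole. Both were low in leaf as well, at 0.786 and 0.509 CPM. Of 21 tested senescence-associated genes 7 were higher and 9 lower (median -0.30). For both senescence lists the shares over all genes tested were 31.4% higher and 31% lower. A senescence/dehydration-associated gene (BraA07g003080.3C) had 175, 177 and 172 CPM in petiole and 17.7, 14.4 and 12.3 CPM in leaf, and a SENESCENCE-ASSOCIATED GENE 21-like gene (BraA02g026970.3C) rose by 3.79 (SE 0.968; edgeR adjusted p = 0.00959). A SWEET15-like sugar transporter gene (BraA10g025580.3C) was at 0 in petiole and 2.83 CPM in leaf, at least 277-fold lower in petiole. An autophagy-related protein 8f-like gene (BraA03g046990.3C) fell by 1.56.

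**Figure D5:**
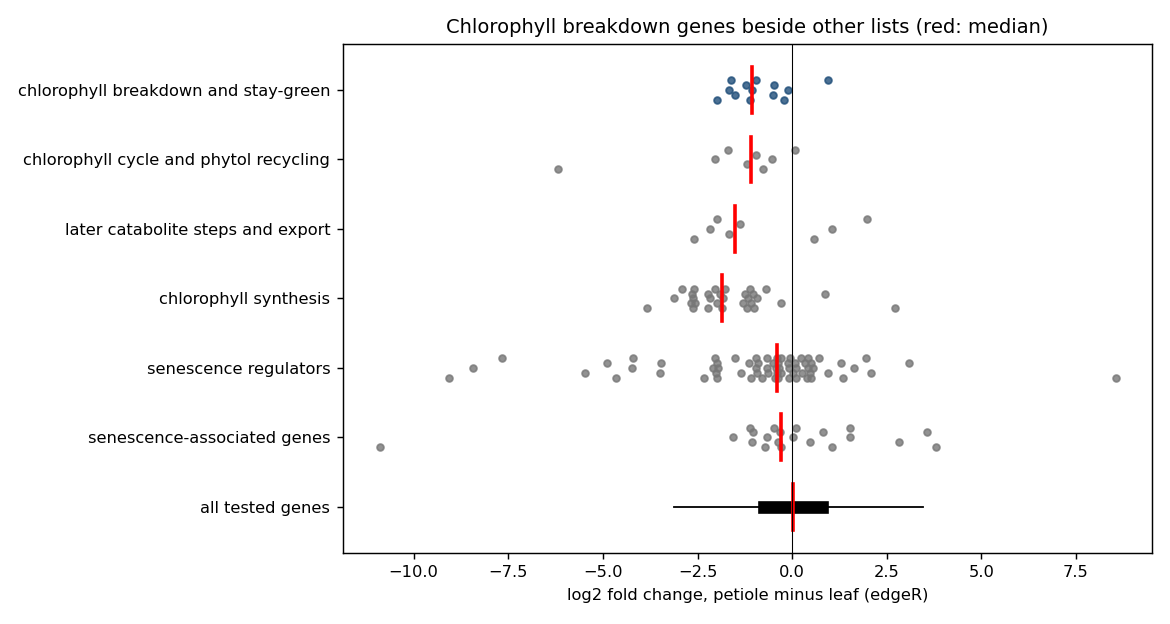
Points are tested genes on the axis of log2 fold change, petiole minus leaf, by list, and red lines are medians; for all tested genes the thick bar spans the middle quartiles and the thin line the wider range drawn. The median of the chlorophyll breakdown genes is at -1.07, that of chlorophyll synthesis at -1.84, and those of the senescence lists at -0.40 and -0.30.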

How the data were processed

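RNA of 3 petiole and 3 leaf libraries was depleted of ribosomal RNA and sequenced strand-specifically, per the labels' protocols. The authors deposited estimated counts and FPKM per transcript, and back-spliced read counts per circular RNA, per the file headers. The estimated counts are whole numbers and needed no rounding. The submitters' processing notes list HISAT2, StringTie and TopHat but neither their versions nor their use, and the genome build is not given in the sources used here. Totals were 120805715 to 132861243 estimated counts per petiole library and 111518411 to 121161682 per leaf library. Intervals and floors cover counting error only.

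Gene values are sums over class codes =, j and c. Testing took genes, and separately isoforms, that averaged 10 counts or more, in edgeR 4.0.16 (R 4.3.3; TMM, quasi-likelihood F test, Benjamini-Hochberg, called at adjusted p below 0.05). In simulated counts for the gene comparison (27824 genes), this test called 49 of 100 genes changed by 1 and 94 of 94 changed by 2 on the log2 scale, and 7 of 27630 unchanged genes. The simulation gave every gene the same fixed spread and changed few genes, settings that were not estimated from these data. Its shares of calls therefore do not measure what was missed among the real genes. The SE is the fold change divided by the root of F. Alternatives were DESeq2 1.42.0, limma 3.58.1 on log2(FPKM + 1) and log2(FPKM + 0.1), with FPKM of 0.0001 set to 0 where the count is 0, other gene definitions and filters, left-out libraries and a replicate block; the share test of isoforms, the isoform alternatives, the FPKM values relative to the median gene and NYC1 without its overlapping transcripts were added after seeing the data. Every member is described; of larger lists up to 2 called rises and 2 called falls with the largest change are named, and the other list genes named were picked for their role after their values were seen. Members and lists were chosen with earlier results of these data known.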

Additional observations from a re-analysis of the deposited data

How the results depend on the processing

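With DESeq2, with RLE in place of TMM, without the filter, with all transcripts under a gene name and without any one library, 10 members were called lower and 1 higher as in the reported fit; lower calls among transcripts ranged from 3 to 6 over left-out libraries (the higher call stayed at 1), with 11 lower by DESeq2. Over all genes, left-out libraries gave 8027 to 8453 higher and 8047 to 8253 lower. With the replicate block, for which the labels give no shared plant or day and deviations of same-numbered libraries had correlations of 0.003, 0.003 and -0.003, 10 members were lower and 1 higher and 8148 genes higher and 8166 lower; the shared numbers were not taken as pairs. On the FPKM scales, whose median gene stood 0.48 higher in petiole at a pseudocount of 1 and 0.72 at 0.1, 16497 genes were called higher and 4257 lower at 1, and 16560 and 4269 at 0.1, with rises making up 79.5% of calls, where edgeR gave 50.3%; 4 members were higher and 7 lower at either. Direction turned at 1 and 0.1 for the pheophytinases on A01 (BraA01g002240.3C; 0.54 and 0.63) and A03 (BraA03g005900.3C; 0.23 and 0.27), STAY-GREEN 1-like (BraA08g015150.3C; 0.21 and 0.24) and STAY-GREEN 2-like (BraA03g027730.3C; 0.15 and 0.52), and the call of the pheophytinase on A10 was lost (BraA10g020590.3C; -0.15 and -0.18). STAY-GREEN 2-like also turned without leaf replicate 2 (0.19; -0.63 to 0.19 over left-out libraries). With annotated transcripts only, 6 members were lower and 1 higher, and 5065 genes were higher and 4888 lower; the pheophorbide a oxygenase gene (BraA01g025910.3C) turned to 1.69, uncalled, because its annotated transcript held 0.0524% to 0.607% of its counts in petiole and 0% to 0.122% in leaf. The calls of NOL, NYC1 on A08 and the pheophytinase on A10 were lost there (-1.19, -1.87 and -1.82). STAY-GREEN 2-like had the fewest counts of the tested members, and STAY-GREEN LIKE had 0 in every library. Why STAY-GREEN LIKE had no counts was not tested.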

Other observations

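Pheophorbidase cleaves a side group of pheophorbide in radish and is outside the rule for members; its genes were looked at after their values were seen. BraA01g019870.3C, described as pheophorbidase, had 0 counts in every petiole library, against 5.37, 5.35 and 6.71 CPM in leaf, at least 570-fold lower in petiole taking 3 counts over the 3 petiole libraries as the floor. A gene of the same description, BraA08g012010.3C, had 24.6, 27.1 and 20.9 CPM in petiole and 18.7, 21.8 and 15.9 CPM in leaf, and was not called (log2 fold change 0.37, SE 0.143; edgeR adjusted p = 0.0546).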
